A study of Homo sapiens with 12 samples.

Results

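The genes that build iron-sulfur clusters and heme were examined as one group of 31 genes, among 56337 distinct gene identifiers in the expression table. They were chosen by name, as the rows whose symbol is on a list of assembly factors. Mitochondrial cluster assembly has 15 members, cytosolic cluster assembly has 6, and heme synthesis has 10. All 31 were found and all passed the minimum mean of 1 FPKM used for testing. FPKM is a count of sequenced fragments scaled to transcript length and library size, so levels of different genes can be set side by side.

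The libraries came from wild type HEK293T cells, an immortalized human embryonic kidney line, grown in RPMI medium with serum. Control cells received neither agent. BafA1 cells received 10 nM bafilomycin A1, an inhibitor of the proton pump that acidifies lysosomes, for 24 h. FAC cells were given ferric ammonium citrate, an iron salt, at 0.1 mg/ml for a 24 h preincubation and no BafA1. FAC+BafA1 cells were given the same iron salt first and then BafA1. Each group had 3 libraries of polyadenylated RNA. The labels do not say whether they came from separate cultures, so p-values measure the spread between these libraries, which may be technical. The series sets the loss of lysosomal acidity with and without added iron against each other, and the question here is how the genes that put iron to use responded.

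Iron-sulfur clusters are made in the mitochondrial matrix, where the desulfurase NFS1 takes sulfur from cysteine and passes it to the scaffold ISCU. Chaperones and carriers then hand the new cluster to enzymes of respiration and lipoate synthesis, and a separate cytosolic machinery serves enzymes of DNA repair and replication. Heme synthesis starts and ends in mitochondria: ALAS1 makes the first precursor and FECH, itself a cluster protein, inserts the iron.

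Of the HEK293T-typical markers, 10 of 12 were at 1 FPKM or more, PAX2 and LIN28A being the exceptions, and the list summed to 268 to 308 FPKM per library. Of 14 erythroid markers, which would mark cells with high heme output, only HBA1 reached a mean of 1 FPKM, HBB, HBG1 and AHSP were at 0 in every library, and the list summed to 2.74 to 2.97 FPKM without either agent, 1.44 to 2.54 under BafA1, 3.26 to 3.59 with FAC and 2.79 to 3.40 with both. Of 8 fibroblast markers only COL1A1 reached 1 FPKM and COL1A2 was at 0, and the list summed to 5.06 to 7.21 FPKM without either agent, 3.01 to 3.95 under BafA1, 5.39 to 7.11 with FAC and 5.80 to 8.54 with both. Of 8 keratinocyte or HeLa markers none reached 1 FPKM and KRT6A and DSG3 were at 0, and the sums were 0.17 to 0.27, 0.77 to 1.33, 0.23 to 0.33 and 0.36 to 0.66 FPKM in the same order. The part of these lists in the results was not tested. TFRC, the transferrin receptor, whose transcript is stabilized when cells lack iron, averaged 58.3 ± 0.991 FPKM without either agent, 130.0 ± 3.05 under BafA1, 10.3 ± 1.29 with FAC and 122.0 ± 3.03 with both (SD, n = 3). Libraries with and without FAC differed in which gene entries were filled: 304 genes were at 0 in all libraries without FAC and at 1 FPKM or more in all with it, and 323 the reverse. None of the 31 members was among them and no member's exons overlapped one, but for comparisons across FAC this difference and the treatment cannot be told apart.

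The members were moderately to highly expressed, from 5.93 to 392 FPKM in any library. The median coefficient of variation within a group was 4.26% and the highest was 16.0%. In control, HSPA9, the mitochondrial Hsp70 chaperone, was highest at 311.0 ± 2.23 FPKM and did not overlap the next member. BOLA3, CIAPIN1, TMEM14C and UROD followed between 74.0 and 89.3 FPKM, and each overlapped its neighbour in this order over its 3 libraries. At the lower end FDXR, NUBPL, IBA57, ABCB6, NDOR1 and ALAD lay between 8.02 and 10.4 FPKM, and again each overlapped the next. The median member stood at 27.6 FPKM in control, beside 11.9 for all 13682 genes tested.

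**Figure D1:**
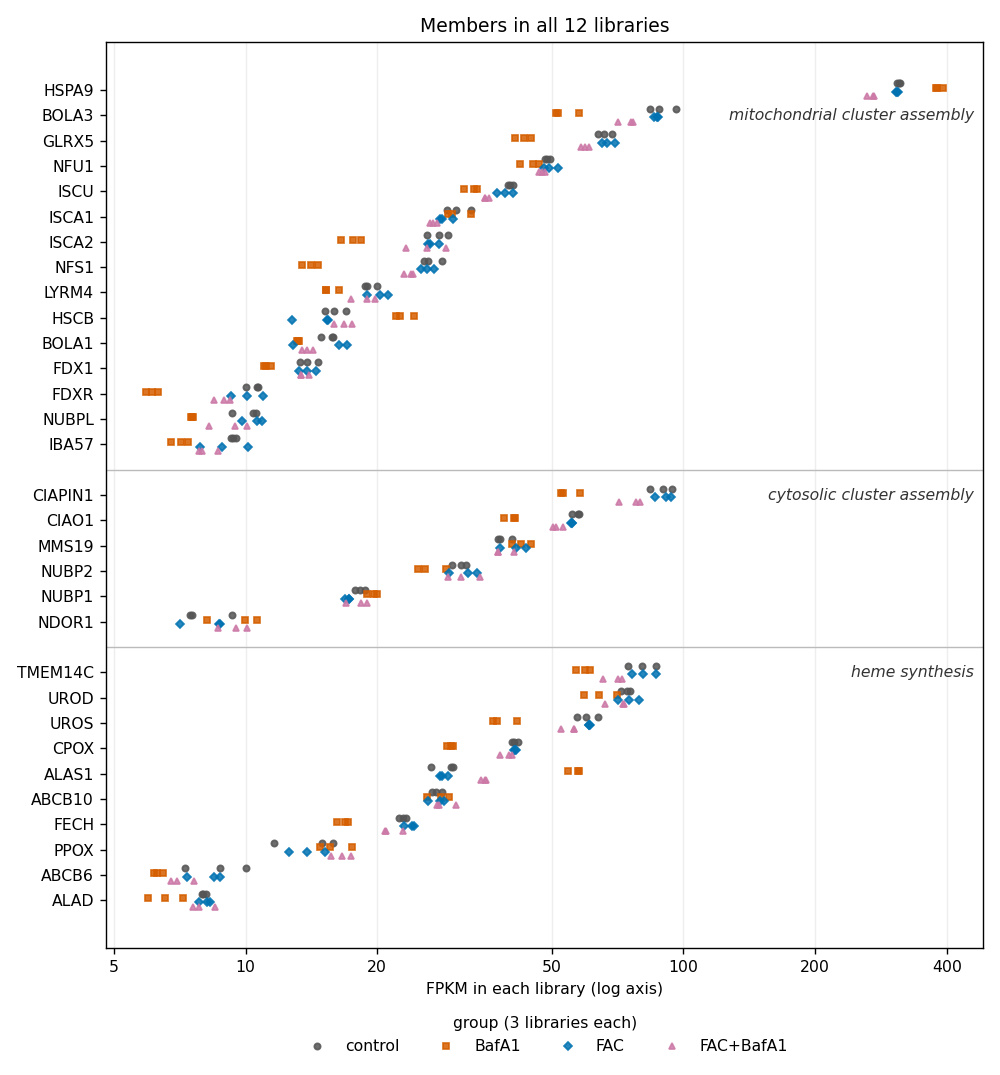
FPKM of the 31 members in each of the 12 libraries on a log axis, grouped by branch and ordered by the control mean; each point is 1 library and the symbol gives its group. BafA1 points of most members lie to the left of the other groups, while those of HSPA9, HSCB and ALAS1 lie to the right, and the points of control and FAC lie close together.

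BafA1 without added iron lowered most of these transcripts and raised a few. In the limma fit on log2(FPKM + 1), 22 of the 31 members fell, 3 rose and 6 did not pass an adjusted p of 0.05. Over all genes tested, 67.1% were called in this comparison, 37.6% lower and 29.5% higher. With median-of-ratios scaling of the libraries the members' counts were 18 lower and 6 higher, and with quantile normalization 22 and 4. Without control replicate 3, 5 members were called higher. These are bulk values, in which fewer cells holding a transcript and less of it per cell cannot be told apart. The median log2 change was -0.29 for the members and -0.04 for all genes tested. By branch the mitochondrial members had a median of -0.29 with 12 lower and 2 higher, the heme members -0.32 with 7 lower and 1 higher, and the cytosolic members -0.07 with 3 lower and 0 higher. With median-of-ratios scaling these medians were -0.23, -0.27 and 0, so the cytosolic median had no direction there, and the cytosolic counts were 2 lower and 3 higher. The 3 BafA1 libraries lay below all 3 control libraries for 22 members and above them for 4, beside 38.3% and 30.4% of all genes.

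In the mitochondrial branch NFS1, the cysteine desulfurase that supplies the sulfur of every cluster, fell furthest. The gene (ENSG00000244005) lies on the reverse strand of chromosome 20, from 35668052 to 35699355 on GRCh38. Its level was 26.1, 25.6 and 28.0 FPKM in the control libraries, 13.4, 14.1 and 14.6 under BafA1, 26.0, 27.0 and 25.1 with FAC and 22.9, 24.2 and 23.8 with both agents. The BafA1 libraries were well below the other 9, and the FAC+BafA1 libraries lay just under control and FAC without overlapping them. The BafA1 mean was 0.529 times the control mean, a log2 change of -0.87 (SE 0.05, adjusted p = 9.87e-09). The partners that hold NFS1 in its working complex moved less: ISCU, the scaffold, went from 40.2 ± 0.485 to 32.8 ± 1.18 FPKM (log2 change -0.29), and LYRM4, the stabilizing subunit, from 19.2 ± 0.648 to 15.6 ± 0.609 (-0.28). The ratio of NFS1 to ISCU within a library was 0.660 ± 0.0244 for control, 0.429 ± 0.0269 under BafA1, 0.666 ± 0.0518 with FAC and 0.667 ± 0.0124 with both agents. This ratio and the other ratios of members given here are descriptions and were not tested.

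Transcripts of the members FDXR and FDX1, which pass electrons in mitochondria, also fell. FDXR, the reductase that passes electrons from NADPH to ferredoxin, was at 10.0, 10.7 and 10.6 FPKM in the control libraries, 5.93, 6.12 and 6.31 under BafA1, 10.97, 10.1 and 9.26 with FAC and 8.47, 9.21 and 8.92 with both agents. BafA1 was lowest in every library, and FAC+BafA1 lay between BafA1 and the others. The log2 change from control to BafA1 was -0.68 (SE 0.06, adjusted p = 9.22e-07). FDX1, a mitochondrial ferredoxin, fell from 13.9 ± 0.657 to 11.2 ± 0.190 FPKM (log2 change -0.29).

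Among the carriers that take the cluster onward, BOLA3, which works with NFU1 on lipoate synthesis and respiratory enzymes, was at 87.9, 96.2 and 83.9 FPKM in the control libraries, 51.6, 57.8 and 51.3 under BafA1, 85.5, 87.0 and 87.3 with FAC and 70.8, 76.7 and 75.8 with both agents. Control and FAC overlapped, FAC+BafA1 lay below them, and the BafA1 libraries were the lowest. Its log2 change with BafA1 was -0.73 (SE 0.06, adjusted p = 2.14e-07). GLRX5, the glutaredoxin that receives the cluster from the scaffold, fell from 66.2 ± 2.44 to 43.2 ± 1.79 FPKM (log2 change -0.61). NFU1 itself fell less, from 49.0 ± 0.620 to 44.8 ± 2.24 FPKM (-0.13), and median-of-ratios scaling ended its call (adjusted p = 0.196).

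Of the late-acting pair ISCA1 and ISCA2, which together form the larger cubane clusters, ISCA2 fell and ISCA1 did not pass the test. ISCA2 (ENSG00000165898; chromosome 14, 74493756 to 74497106, forward strand) was at 29.1, 25.9 and 27.7 FPKM in the control libraries, 16.6, 18.3 and 17.6 under BafA1, 26.3, 26.1 and 27.6 with FAC and 28.7, 23.2 and 26.0 with both agents. Only the BafA1 libraries stood apart, and the other 3 groups overlapped each other. ISCA2 fell by 0.63 on the log2 scale (SE 0.07, adjusted p = 5.44e-06), whereas ISCA1 averaged 30.6 ± 1.94 FPKM in control libraries and 30.4 ± 2.07 under BafA1 (log2 change -0.01, 95% interval -0.13 to 0.11). The ratio of ISCA2 to ISCA1 was 0.902 ± 0.0119 for control, 0.576 ± 0.0192 under BafA1, 0.935 ± 0.0065 with FAC and 0.966 ± 0.0815 with both agents. IBA57, their partner, had a log2 change of -0.36, NUBPL, which serves respiratory complex I, of -0.38, and BOLA1 of -0.22. The BOLA1 call was lost in 7 of 20 other processing settings.

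The transcripts of HSPA9 and HSCB, chaperones with a part in moving the cluster off the scaffold, went the other way. HSPA9 (ENSG00000113013; chromosome 5, 138553756 to 138575675, reverse strand) was at 308, 312 and 313 FPKM in the control libraries, 379.6, 392 and 378 under BafA1, 306, 309 and 308 with FAC and 273, 271 and 263 with both agents. Control and FAC overlapped, BafA1 was highest and FAC+BafA1 lowest. The log2 change with BafA1 was 0.30 (SE 0.02, adjusted p = 2.55e-07). HSCB, the co-chaperone that brings the scaffold to HSPA9, was at 15.9, 17.0 and 15.2 FPKM in the control libraries, 22.1, 24.2 and 22.6 under BafA1, 15.5, 12.8 and 15.3 with FAC and 16.8, 17.5 and 15.9 with both agents. Its log2 change was 0.49 (SE 0.07, adjusted p = 5.81e-05), with the BafA1 libraries above all others. The exons of HSCB share 20.2% of their bases with a gene on the opposite strand. The ratio of HSPA9 to NFS1 was 11.7 ± 0.519 for control, 27.3 ± 1.30 under BafA1, 11.8 ± 0.393 with FAC and 11.4 ± 0.451 with both agents.

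Mitochondrially encoded transcripts, as a share of all FPKM, made up 1.65 to 2.27% without either agent, 2.46 to 3.09% under BafA1, 1.48 to 1.82% with FAC and 1.71 to 2.23% with both. Their part in the changes of the nuclear-encoded mitochondrial members was not tested.

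**Figure D2:**
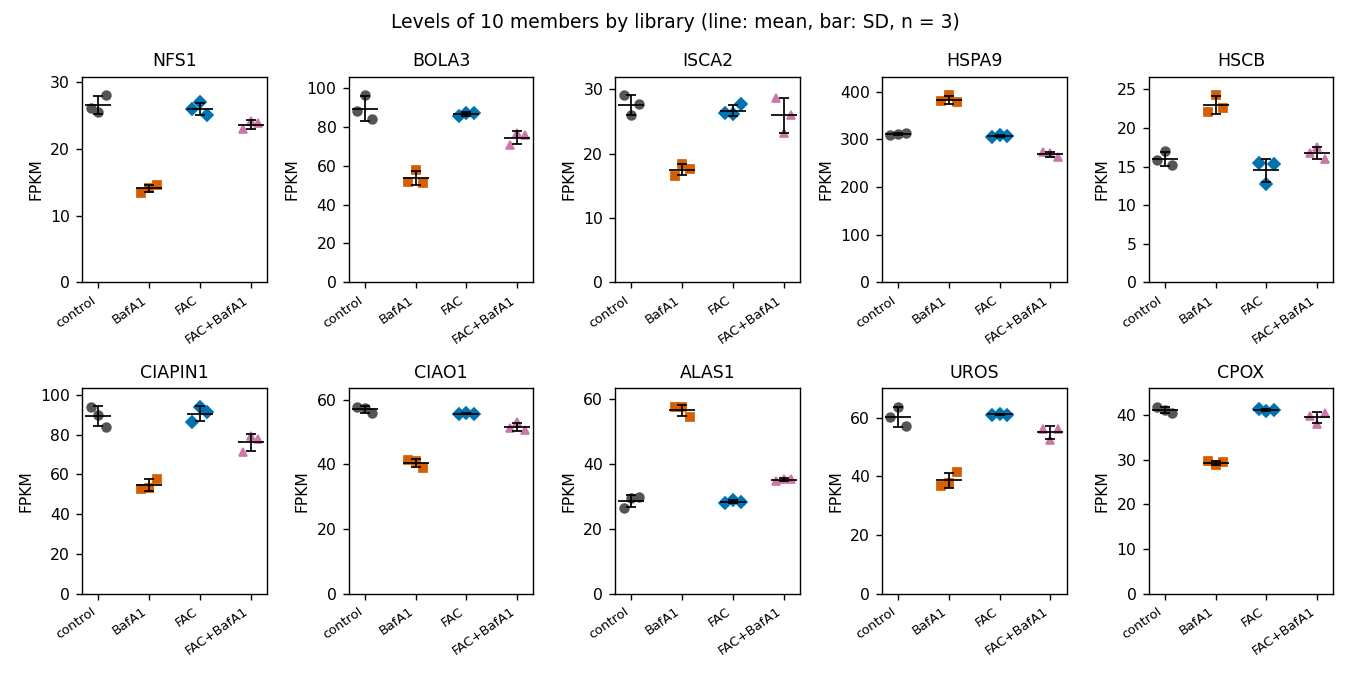
FPKM of 10 members in each library, 1 panel per gene, with the group on the horizontal axis; points are libraries, the line is the mean and the bar the SD (n = 3), and every axis starts at 0. NFS1, BOLA3, ISCA2, CIAPIN1, CIAO1, UROS and CPOX were lowest in BafA1, and HSPA9, HSCB and ALAS1 were highest there. The FAC+BafA1 mean lay closer to control than the BafA1 mean did, and for HSPA9 it lay on the far side of control.

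In the cytosolic branch CIAPIN1, CIAO1 and NUBP2 fell and the other 3 members did not pass. With median-of-ratios scaling CIAPIN1 and CIAO1 stayed lower, NUBP2 was not called, and NUBP1, MMS19 and NDOR1 were called higher. CIAPIN1 (ENSG00000005194; chromosome 16, 57428187 to 57447420, reverse strand), the protein that takes electrons for cluster assembly in the cytosol, was at 94.2, 89.8 and 84.0 FPKM in the control libraries, 52.5, 53.0 and 57.9 under BafA1, 86.3, 93.9 and 91.5 with FAC and 71.2, 79.5 and 77.8 with both agents. The BafA1 libraries were the lowest, FAC+BafA1 came next, and control and FAC overlapped. Its log2 change with BafA1 was -0.70 (SE 0.06, adjusted p = 3.20e-07). NDOR1, the reductase that feeds CIAPIN1, was at 7.54, 7.48 and 9.33 FPKM in the control libraries, 10.6, 8.18 and 9.96 under BafA1, 8.75, 8.69 and 7.07 with FAC and 9.53, 10.1 and 8.65 with both agents. All 4 groups overlapped and the log2 change of 0.22 with BafA1 did not pass (SE 0.11, adjusted p = 0.102). It was called higher with median-of-ratios scaling (log2 change 0.27, limma adjusted p = 0.0365), without control replicate 3 (0.0307) and without BafA1 replicate 2 (0.0248). The value of NDOR1 is uncertain, since 36.0% of its exon bases lie in another gene entry on the same strand.

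CIAO1 (ENSG00000144021; chromosome 2, 96266159 to 96274173, forward strand), the WD40 protein of the complex that delivers clusters to their targets, was at 57.9, 57.5 and 55.8 FPKM in the control libraries, 41.3, 41.0 and 38.8 under BafA1, 55.5, 55.8 and 55.7 with FAC and 51.2, 53.0 and 50.5 with both agents. The BafA1 libraries were well below the other 9, and FAC+BafA1 lay just under control and FAC. The log2 change was -0.49 (SE 0.03, adjusted p = 6.81e-08). MMS19, the large subunit of the same targeting complex, averaged 38.8 ± 1.53 FPKM in control libraries and 42.7 ± 2.19 under BafA1 (log2 change 0.13, adjusted p = 0.0515, called higher in 8 of 20 other settings, with log2 change 0.20 and adjusted p = 0.00813 under median-of-ratios scaling). The ratio of CIAO1 to MMS19 was 1.47 ± 0.0854 for control, 0.947 ± 0.0246 under BafA1, 1.36 ± 0.0890 with FAC and 1.33 ± 0.0776 with both agents.

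Of the scaffold pair on which cytosolic clusters are built, NUBP2 was at 31.1, 31.9 and 29.6 FPKM in the control libraries, 28.7, 25.7 and 24.8 under BafA1, 33.8, 32.2 and 29.2 with FAC and 31, 29 and 34.4 with both agents. BafA1 was lowest and the other groups overlapped. The log2 change of -0.22 passed (SE 0.07, adjusted p = 0.0168). It did not pass in 5 of 20 other settings, namely median-of-ratios scaling (adjusted p = 0.0649), no filter on low values (0.0504), and without control replicate 2 (0.0583), BafA1 replicate 2 (0.0512) or BafA1 replicate 3 (0.0706). NUBP1, its partner, averaged 18.3 ± 0.455 FPKM in control libraries and 19.5 ± 0.531 under BafA1 (log2 change 0.09, adjusted p = 0.0958; called higher at 0.15, adjusted p = 0.0107, under median-of-ratios scaling), with 36.1% of its exon bases under a gene on the opposite strand.

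In the heme branch ALAS1, the enzyme of the first step and the one that limits the rate outside red cells, rose while enzymes further down fell. ALAS1 was at 26.5, 29.4 and 29.8 FPKM in the control libraries, 57.4, 57.6 and 54.5 under BafA1, 27.9, 28.9 and 28.2 with FAC and 34.5, 35.3 and 35.4 with both agents. Control and FAC overlapped, BafA1 was highest, and FAC+BafA1 stood between them. The BafA1 mean was 1.98 times the control mean, a log2 change of 0.96 (SE 0.04, adjusted p = 2.62e-09). ALAS1 (ENSG00000023330) lies on the forward strand of chromosome 3, from 52198086 to 52214327 on GRCh38, and no other annotated gene shares its exons.

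The promoters of 2 members are shown because one rose and the other fell and neither window holds an annotated exon base. ALAS1 is the member that rose most, and FDX1 is a member that fell and has 1 annotated transcript. Each sequence is the 250 bases before the start site, from RefSeq on GRCh38.p14, forward strand, at chr3:52197833-52198082 for ALAS1 and chr11:110429698-110429947 for FDX1, with GC boxes (GGGCGG or its reverse complement) in capitals.
ALAS1: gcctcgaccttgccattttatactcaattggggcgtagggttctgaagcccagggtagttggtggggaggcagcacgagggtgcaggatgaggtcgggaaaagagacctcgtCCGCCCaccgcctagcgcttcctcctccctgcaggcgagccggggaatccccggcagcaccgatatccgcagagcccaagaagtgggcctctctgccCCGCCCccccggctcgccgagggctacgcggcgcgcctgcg
FDX1: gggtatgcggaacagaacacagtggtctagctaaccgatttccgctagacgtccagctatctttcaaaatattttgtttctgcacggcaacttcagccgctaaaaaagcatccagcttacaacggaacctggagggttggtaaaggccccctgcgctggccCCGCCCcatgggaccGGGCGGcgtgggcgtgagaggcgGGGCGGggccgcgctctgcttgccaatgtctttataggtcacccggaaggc
Both windows are rich in G and C, at 67.2% for ALAS1 and 58.4% for FDX1.

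Promoter windows of 300 bases, reaching 50 bases past the start, were found for 29 of the 31 members, 38 windows in all. They were searched on both strands for 7 motifs, none of which contains another. A GC box stood in 30 of the 38 windows, beside 67.3% of the windows of tested genes and 45% of all windows in the RefSeq table. The NRF1 motif GCATGCGC was in the windows of ALAS1, MMS19 and TMEM14C, 3 of 38, beside 4.9% for tested genes and 3.1% for all. In ALAS1 it reads the same motif on both strands, shown in capitals in this stretch just past the start site at chr3:52198097-52198120.
ALAS1 NRF1 motif: gcccaagGCGCATGCGCagcggtc
The E-box CACGTG was in 5 member windows (9.5% of those of tested genes), the ETS motif ACTTCCGG in 3 (7.7%), the CRE motif TGACGTCA in 2 (3.0%), the ATF4-C/EBP element TGATGCAA in 1, that of LYRM4 (0.5%), and the AP-1 motif TGACTCA in 0 (3.2%). These matches describe the letters in the windows and no binding was measured.

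After ALAS1 the steps did not move as one. UROS (ENSG00000188690; chromosome 10, 125784980 to 125823258, reverse strand), which closes the tetrapyrrole ring, was at 60.02, 63.7 and 57.0 FPKM in the control libraries, 36.7, 37.6 and 41.6 under BafA1, 60.9, 61.3 and 61.0 with FAC and 56.2, 52.5 and 56.2 with both agents. BafA1 was lowest and did not overlap any other group. The log2 change was -0.63 (SE 0.05, adjusted p = 3.92e-07). CPOX, which oxidizes coproporphyrinogen in the mitochondrial intermembrane space, was at 42.0, 41.1 and 40.6 FPKM in the control libraries, 29.7, 28.9 and 29.5 under BafA1, 41.4, 41.1 and 41.3 with FAC and 39.96, 38.04 and 40.55 with both agents. It fell by 0.48 on the log2 scale (SE 0.03, adjusted p = 7.38e-08), and each BafA1 library was lower than every library of the other groups.

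FECH, the ferrochelatase of the last step, was at 22.4, 22.9 and 23.2 FPKM in the control libraries, 16.1, 17.1 and 16.9 under BafA1, 24.0, 23.0 and 24.3 with FAC and 22.9, 20.8 and 20.9 with both agents. BafA1 was lowest, and FAC+BafA1 overlapped control. The log2 change was -0.43 (SE 0.04, adjusted p = 3.32e-06). TMEM14C, a porphyrin carrier of the inner membrane, was at 86.4, 80.3 and 74.7 FPKM in the control libraries, 56.8, 59.7 and 61.2 under BafA1, 76.4, 81.0 and 86.6 with FAC and 65.7, 70.8 and 72.4 with both agents. It also fell by 0.43 (SE 0.06, adjusted p = 3.91e-05), with BafA1 below all other libraries.

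Smaller decreases were called for ALAD, the second enzyme (log2 change -0.25), and UROD, the fifth (-0.20). Median-of-ratios scaling ended the UROD call (adjusted p = 0.0675). ABCB6, a porphyrin transporter, fell by 0.40, but 54.6% of its exon bases lie in another gene entry on the same strand. PPOX, the oxidase before FECH, averaged 14.1 ± 2.21 FPKM in control libraries and 16.0 ± 1.39 under BafA1 (log2 change 0.17, adjusted p = 0.164), and 23.7% of its exon bases overlap a gene on the opposite strand. ABCB10, an inner-membrane transporter needed for early heme synthesis, was at 27.3 ± 0.762 and 27.7 ± 1.65 FPKM (0.02, adjusted p = 0.820). The ratio of the first to the last enzyme, ALAS1 to FECH, was 1.25 ± 0.0586 for control, 3.38 ± 0.166 under BafA1, 1.19 ± 0.0568 with FAC and 1.64 ± 0.108 with both agents.

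**Figure D3:**
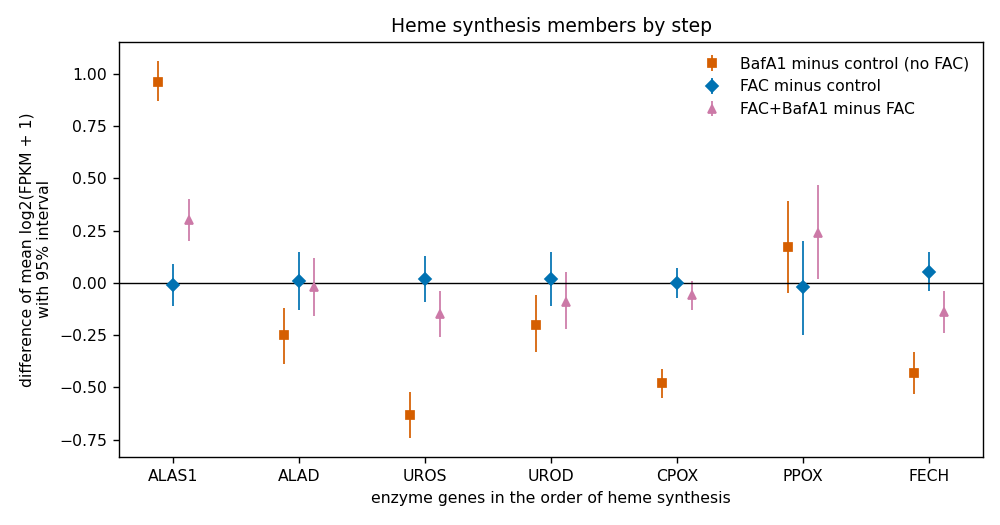
Difference of mean log2(FPKM + 1) for the 7 members that are heme synthesis enzymes, in pathway order, with 95% intervals of the limma fit, for BafA1 minus control (squares), FAC minus control (diamonds) and FAC+BafA1 minus FAC (triangles). ALAS1 lies at 0.96 in the first of these and UROS at -0.63, the BafA1 minus control interval of PPOX holds 0, and the FAC minus control values of all 7 lie near 0.

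Added iron alone gave no called change in the group. In FAC against control 0 of 31 members passed in limma, 0 had an unadjusted p under 0.05 and the lowest adjusted p was 0.360, for NUBP1. Of all genes tested 9.56% were called, 4.72% higher and 4.84% lower. The number called depends on the filter on low values: 1308 genes as fitted and 4486 with no filter, where more genes were tested. With a mean of at least 5 FPKM, and so fewer genes tested, 402 were called. These counts do not show how the share changed. Log2 differences over all genes ran from -9.59 to 9.61. Gene entries at 0 without FAC and at 1 FPKM or more with it numbered 304, and 323 were the reverse. How many of these are among the 1308 calls was not counted, and their part in the 9.56% was not tested. The widest bounds of the 95% intervals were -0.29 for HSCB and 0.25 for NDOR1, so log2 differences beyond these lie outside the intervals of every member. CIAO1 and NUBP1 were lower in all 3 FAC libraries than in any control library, 2 of 31 members, and 0 were higher in all 3, beside 10.5% and 9.88% of all genes, with log2 differences of -0.04 and -0.09. The branch medians were -0.03, 0.02 and 0.01 for the mitochondrial, cytosolic and heme members.

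With iron given first, fewer members passed the test after BafA1. In FAC+BafA1 against FAC, 8 members fell, 1 rose and 22 did not pass, beside 9.49% of all genes called lower and 9.76% higher (19.3% in all). All FAC+BafA1 libraries lay below all FAC libraries for 13 members and above them for 3, beside 18.1% and 18.8% of all genes. The 8 were ISCU, HSPA9, GLRX5 and BOLA3 in the mitochondrial branch, CIAO1 and CIAPIN1 in the cytosolic branch, and FECH and TMEM14C in the heme branch, with log2 changes from -0.11 for CIAO1 to -0.25 for CIAPIN1. ALAS1 rose by 0.30 (SE 0.04, adjusted p = 0.000681). HSPA9, GLRX5, CIAPIN1 and ALAS1 kept their calls in all 20 other settings. FECH (adjusted p = 0.0470) lost its call in 14 of them and CIAO1 in 8. The count of 8 fell to 4 without FAC replicate 2, without FAC+BafA1 replicate 1 or with no filter on low values, and to 5 without FAC replicate 1 or FAC+BafA1 replicate 3. Without control replicate 1 2 members were called higher. NFS1, the largest decrease without FAC, had a log2 change of -0.13 here (SE 0.05, adjusted p = 0.0678).

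The difference between the responses was tested as an interaction, the BafA1 change with FAC minus the change without it. It was positive and called for 13 members and negative and called for 4, beside 29.5% and 20.6% of all genes (50.1% in either direction). With median-of-ratios scaling the counts were 11 and 4, and with quantile normalization 12 and 4. In the mitochondrial branch 7 were positive, led by NFS1 at 0.74 (SE 0.07, adjusted p = 3.12e-06) and ISCA2 at 0.58 (SE 0.10, adjusted p = 0.000378). In the cytosolic branch CIAPIN1 was at 0.46 (SE 0.08, adjusted p = 0.000526) and CIAO1 at 0.38 (SE 0.05, adjusted p = 3.43e-05). In the heme branch 4 were positive, led by UROS at 0.48 (SE 0.07, adjusted p = 0.000188), and ALAS1 was negative at -0.66 (SE 0.06, adjusted p = 4.72e-06). The other negative members were HSPA9 at -0.49, HSCB at -0.30 and MMS19 at -0.21. The calls of ISCU, ALAD, MMS19 and HSCB were lost in 12, 14, 11 and 7 of 19 other settings, and the negative count fell to 2 without control replicate 1, BafA1 replicate 2, FAC replicate 3 or FAC+BafA1 replicate 3, or with no filter on low values.

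A member was counted as changing less with FAC where its BafA1 response without FAC was called, its interaction was called and opposed that response. This held for 16 of the 25 members called without FAC, or 64%, beside 70.2% of the 9180 genes so called, so the share of the members lay near that of all genes. The median member kept 31.2% of its log2 response with FAC and the median gene 17.5%. The interaction holds the BafA1 minus control difference with its sign reversed. Choosing genes called on that difference therefore tilts the 64% and the 70.2% upward and the responses kept downward. By branch the median kept was 30.9% for the 14 mitochondrial members, 22.3% for the 3 cytosolic and 31.9% for the 8 heme members. Single members ran from 5.13% for NUBP2, 6.84% for ISCA2 and 12.8% for CPOX to 51.0% for TMEM14C and 62.4% for BOLA1. These percentages are ratios of log2 changes, carry no interval and were not tested against each other. The interaction was called for ISCA2 and CPOX. For NUBP2 (limma adjusted p = 0.109), TMEM14C (0.054) and BOLA1 (0.577) it was not, so the ends of this range are uncertain. HSPA9 turned round, from a rise of 0.30 without FAC to a log2 change of -0.19 with it (SE 0.02, adjusted p = 0.000169).

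**Figure D4:**
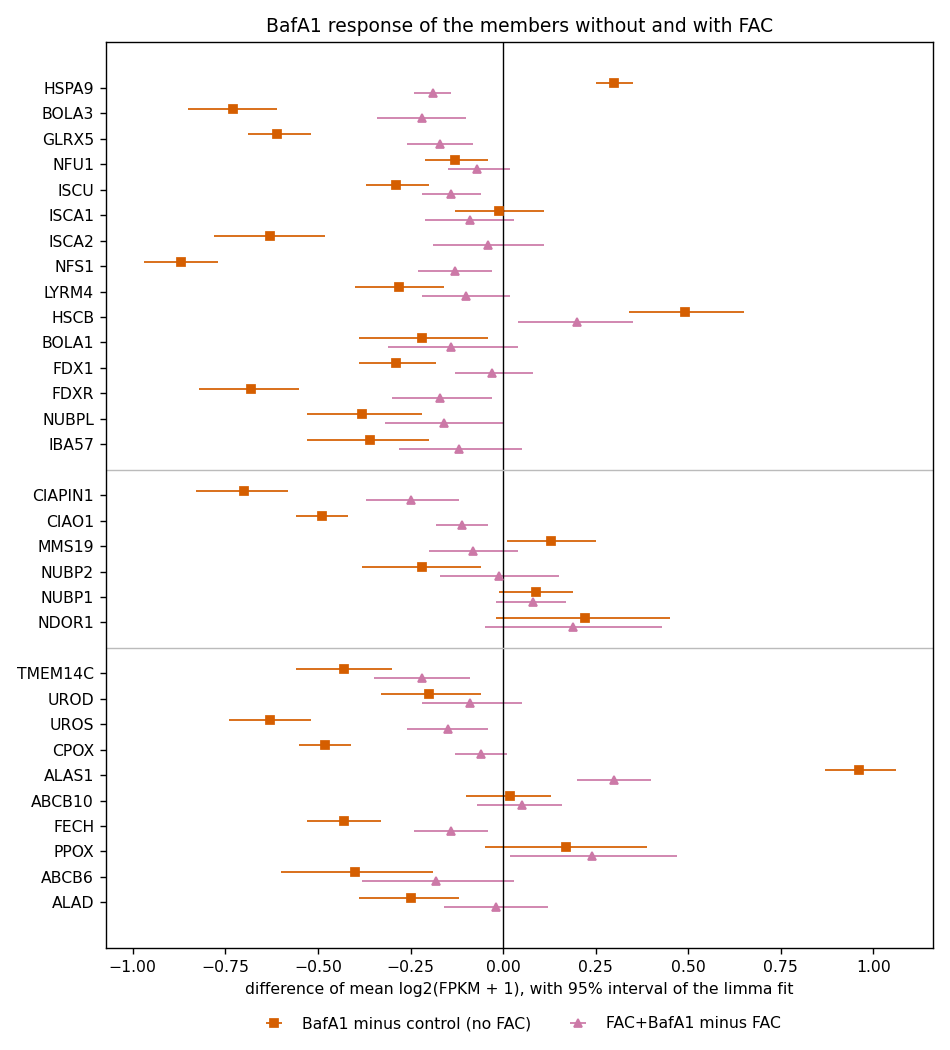
Difference of mean log2(FPKM + 1) with its 95% interval from the limma fit for each of the 31 members, grouped by branch, for BafA1 minus control (squares) and FAC+BafA1 minus FAC (triangles). Most squares lie left of 0, down to -0.87 for NFS1, most triangles lie nearer to 0, and HSPA9 has its square right of 0 and its triangle left of it.

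Set against BafA1 alone, the FAC+BafA1 libraries had 17 members higher, 4 lower and 10 that did not pass, beside 38.8% and 29.1% of all genes (67.9% in either direction). This comparison shares its BafA1 libraries with the first one. The FAC+BafA1 libraries lay above all 3 BafA1 libraries for 21 members and below them for 4, beside 40.4% and 30.8% of all genes. With median-of-ratios scaling the counts were 16 and 6. NFS1 was higher by 0.71 (SE 0.05, adjusted p = 4.58e-08) and ALAS1 lower by a log2 change of -0.67 (SE 0.04, adjusted p = 4.37e-08). The other lower members were HSPA9 at -0.51, HSCB at -0.43 and ISCA1 at -0.17. The branch medians were 0.24 for the mitochondrial, 0.11 for the cytosolic and 0.19 for the heme members, or 0.18, 0.05 and 0.13 with median-of-ratios scaling. The cytosolic median was 0.18 without BafA1 replicate 1 and 0.07 without BafA1 replicate 2.

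FAC+BafA1 libraries were not at the control level for every member. Against control 10 members were lower, 1 was higher and 20 did not pass, beside 16.6% and 16.2% of all genes (32.9% in either direction). The groups did not overlap for 15 members that were lower and 1 that was higher, beside 23.3% and 22.7% of all genes. Those lower were NFS1, ISCU, HSPA9, GLRX5, ISCA1, BOLA3, FDXR, CIAO1, CIAPIN1 and TMEM14C, with log2 differences from -0.14 for CIAO1 to -0.26 for BOLA3. Mitochondrial cluster genes make up 7 of these 10, beside 15 of all 31 members. The calls of FDXR, ISCA1 and TMEM14C were lost in 3 of 20 other settings, and those of NFS1 and GLRX5 in 2. Without FAC+BafA1 replicate 1 6 were called. ALAS1 was higher by 0.29 (SE 0.04, adjusted p = 0.000255), TMEM14C was the only heme member lower, and both FECH (-0.08, adjusted p = 0.174) and UROS (-0.13, adjusted p = 0.0732) did not pass in this comparison.

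Among 45 further genes of these pathways, 42 passed the minimum level; ALAS2, the red-cell form of the first heme enzyme, BOLA2 and FLVCR2 did not. With BafA1 against control 22 fell, 3 rose and 17 did not pass, beside 37.6% lower and 29.5% higher over all genes. HSPE1, a co-chaperonin that helps matrix proteins in general to fold, was at 605, 596 and 564 FPKM in the control libraries, 242, 241 and 255 under BafA1, 571, 547 and 576 with FAC and 489.9, 493 and 490.5 with both agents. BafA1 was lowest and FAC+BafA1 next, and the log2 change was -1.25 (SE 0.03, adjusted p = 2.96e-11). CISD3, a mitochondrial protein that carries clusters itself, was at 19.9, 21.6 and 20.6 FPKM in the control libraries, 7.80, 7.39 and 7.83 under BafA1, 19.6, 19.4 and 20.1 with FAC and 17.5, 16.2 and 17.2 with both agents. Its log2 change was -1.32 (SE 0.05, adjusted p = 2.43e-10), larger than that of any member, though 54.6% of its exon bases overlap a gene on the opposite strand.

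NDUFAB1, the acyl carrier protein in the NFS1 complex, fell by 0.57 on the log2 scale. PGRMC1, a heme-binding protein that associates with FECH, fell by 0.64, and HMOX2, the constitutive heme oxygenase, by 0.65. HEBP2, a heme-binding protein by name, fell by 0.87, and COX15, which makes heme A, by 0.35. BOLA2B, a cytosolic cluster carrier, fell by 0.90, but BOLA2 is a near-identical copy, so how reads were shared between them is uncertain. The 3 that rose, named after their values were seen, were CISD2 at 0.50, LIAS, the lipoate synthase that uses a cluster as a sulfur source, at 0.42, and SLC25A38, the glycine carrier that feeds ALAS1, at 0.42. In FAC against control 0 of the 42 were called, beside 9.56% of all genes under the filter used here. In FAC+BafA1 against FAC 1 was higher and 6 lower, beside 9.76% and 9.49%. The interaction was positive and called for 17 and negative and called for 3, beside 29.5% and 20.6%.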

How the data were processed

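RNA of 12 HEK293T libraries, 4 groups of 3, was sequenced after a stranded poly(A) preparation, per the labels' protocols. The deposited values are FPKM per gene, made by the authors with STAR and RSEM on GRCh38, per the submitters' processing notes; for versions, annotation and strand setting the sources used here give nothing. The 3 repeated identifiers, all at 0, were dropped. Values were fitted as log2(FPKM + 1) with limma 3.58.1 (R 4.3.3): group means, intensity trend, the 13682 genes that averaged 1 FPKM or more over all libraries, Benjamini-Hochberg adjustment within each of 6 comparisons, called at an adjusted p under 0.05. A log2 change is on the log2(FPKM + 1) scale and understates changes of low genes. The code of the fit was also run on simulated data with independent noise and few changed genes. That setting differs from these libraries, where most genes were called with BafA1, so its outcome is not used here. FPKM keeps no counts: low values gave an estimate of 34.5 to 38.0 M fragments per library, with 52.0 to 66.6% of those values within 0.2 of a whole fragment, so depth is uncertain and no count test or counting interval was used.

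The members and gene lists were chosen with earlier results of these data known. All 31 members are named; all libraries are given for the 4 largest BafA1 changes and 2 largest interactions per branch, with FECH and TMEM14C both given as they tie at 2 decimals. HSPA9 and HSCB were added after their values were seen. Of other pathway genes, the 8 with the smallest adjusted p are named; some further genes are not reported here. Gene positions and exon overlaps are from GENCODE 44 and promoters from RefSeq (GRCh38.p14). The 20 alternative settings were pseudocount 0.1, no filter, a mean of at least 5 FPKM, median-of-ratios and quantile scaling, no intensity trend, a replicate block, only the groups compared, and each library left out. Protein sequences are not used here.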

Additional observations from a re-analysis of the deposited data

Results flagged for a closer look

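The BafA1 response differed between cells with and without FAC for 17 of the 31 members, by the interaction term of the limma fit (log2 units, response with FAC minus response without; adjusted p under 0.05). In the mitochondrial branch it was 0.74 for NFS1, 0.58 for ISCA2, 0.52 for FDXR, 0.51 for BOLA3, 0.44 for GLRX5, 0.26 for FDX1 and 0.15 for ISCU, and it was -0.49 for HSPA9 and -0.30 for HSCB. In the cytosolic branch it was 0.46 for CIAPIN1, 0.38 for CIAO1 and -0.21 for MMS19. In the heme branch it was 0.48 for UROS, 0.41 for CPOX, 0.29 for FECH, 0.24 for ALAD and -0.66 for ALAS1. Among the other named genes of these pathways it was 1.12 for CISD3, 1.05 for HSPE1, 0.77 for BOLA2B, 0.63 for HEBP2, 0.56 for PGRMC1, 0.56 for HMOX2, 0.48 for NDUFAB1 and 0.19 for COX15. Of all genes tested 50.1% were called in this comparison, so a called difference was common in these libraries. Groups of 3 libraries were not examined for single outlying values.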

How the results depend on the processing

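Of 25 members called with BafA1 against control, 21 kept their call in all 20 other settings; the counts were 19 of 21 in FAC+BafA1 against BafA1, 6 of 11 against control, 4 of 9 against FAC and 13 of 17 for the interaction (19 settings). No called log2 change of a member reversed; over all settings and comparisons 112 member values lost a call, 58 gained one and 3519 kept their side of the threshold.

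Median-of-ratios scaling gave 6 members higher with BafA1, and branch medians (mitochondrial, cytosolic, heme) of -0.23, 0 and -0.27 in BafA1 against control, 0.18, 0.05 and 0.13 in FAC+BafA1 against BafA1, and 0.15, 0.03 and 0.15 for the interaction. Quantile normalization gave a heme interaction median of 0.18, and a pseudocount of 0.1 a heme median of -0.36 with BafA1. With no filter, 4486 genes were called in FAC against control (1308 as fitted), 7643 in FAC+BafA1 against control (4498), 4 members lower in FAC+BafA1 against FAC and 2 members with a negative interaction. With a mean of at least 5 FPKM 402 genes were called in FAC against control, and with no intensity trend 1 further pathway gene. The cause was not tested, apart from the different numbers of genes tested.

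Leaving out 1 library at a time, members higher with BafA1 numbered 3 to 5 and the heme median was -0.36 to -0.28. In FAC+BafA1 against BafA1 the cytosolic median was 0.07 to 0.18 and the heme median 0.15 to 0.22. In FAC+BafA1 against FAC 1 to 2 members were higher and 4 to 8 lower, and against control 6 to 12 were lower. For the interaction 2 to 4 members were negative, and the medians were 0.06 to 0.16 (cytosolic) and 0.18 to 0.24 (heme).

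Of 18 pairs of libraries with the same replicate number in different groups, 1 had a correlation of deviations over 0.1 (range -0.074 to 0.138). These values show little shared effect of the replicate number and cannot say whether libraries were handled in matched sets. With the replicate block 3 members were higher and 22 lower with BafA1, 7 were lower in FAC+BafA1 against FAC and 3 had a negative interaction. Depth is uncertain; standard errors of the log2 change with BafA1 ran from 0.02 for HSPA9 to 0.11 for NDOR1.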
